A study of Mus musculus with 22 samples.

Results

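The genes described here encode 6 proteases of the extracellular matrix (Plat, Mmp2, Mmp9, Mmp14, Mmp17 and Mmp24) and 4 inhibitors of such proteases (Serpini1, Timp2, Timp3 and Timp4), measured in the hippocampus of TgproNGF#3 and WT mice. They were chosen by name, and every non-control probe of the array assigned to a RefSeq transcript of one of them was used. All 10 genes were represented, by 13 probes, among 21154 genes with a RefSeq-named probe. All 13 probes gave a value on each of the 22 arrays, so none was lost to the filter on dim spots.

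Each array held the RNA of 1 mouse of the C57Bl/6xDBA/2 background, and no mouse had been treated. TgproNGF#3 is 1 founder line that carries a mouse pre-proNGF cDNA mutated at its furin site, followed by an IRES and EGFP, under the Thy1.2 promoter, used for expression in the brain. WT mice lack this transgene. Males were used at 1 month (4 TgproNGF#3, 4 WT) and 3 months (4 TgproNGF#3, 4 WT), females at 12 months (3 TgproNGF#3, 3 WT), and the hippocampus came from the right hemisphere. Each age was hybridized on a slide of its own, so age, slide and, at 12 months, sex cannot be told apart, which touches comparisons between ages but not those of genotype within an age. On the 12-month slide the 3 TgproNGF#3 arrays shared an array row with WT replicate 3, while WT replicates 1 and 2 lay in the other row.

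ProNGF, the product of the transgene, is a substrate of plasmin and matrix metalloproteinases outside the cell. Tissue plasminogen activator (tPA, the product of Plat) turns plasminogen into plasmin, and neuroserpin (Serpini1) is the neuronal serpin that blocks tPA. Matrix metalloproteinases cleave matrix components such as the chondroitin sulphate proteoglycans of perineuronal nets, and are held in check by the tissue inhibitors of metalloproteinases (TIMPs). Some of them are secreted (the gelatinases Mmp2 and Mmp9) and others are held at the cell surface (the membrane-type enzymes Mmp14, Mmp17 and Mmp24). In a tissue sample, fewer cells of a type and less RNA per cell cannot be told apart.

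The level of a probe is its log2 signal minus the 75th percentile of the signals of that array, so 0 is the 75th percentile and a difference of 1 is a doubling. A level tells samples apart for the same probe, but not probes from each other. Summed levels of markers are on another scale, in units of the 75th percentile of the array with dim spots kept. The scales differ by an amount that varies between arrays. At 3 months Timp4 was at 0.14 and 1.98 on them in TgproNGF#3 replicate 4, and at 0.16 and 1.60 in WT replicate 2. A gap between groups in a sum therefore need not hold on the scale of the levels. Between 57.6% and 80.3% of the non-control spots of an array were well above background, and the lowest share was that of TgproNGF#3 replicate 4 at 3 months. Every marker listed for neurons, astrocytes, oligodendrocytes, microglia, endothelium, mural cells, choroid plexus and leptomeninges was well above background on all 22 arrays. The choroid plexus and leptomeningeal RNA differed widely between mice, as given below beside Mmp2 and Serpini1.

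The comparisons between genotypes turn on Mmp24 at 3 months and Serpini1 at 12 months, described further on. The table of promoters from RefSeq (build GRCm38.p6) held 6 of the 10 genes, and the 250 bases before the annotated start of these 2 genes are shown because the results turn on them. Capitals mark matches to the GC box (GGGCGG) and the CCAAT box (CCAAT), searched on both strands. The stretch of Mmp24 is chr2:155775092-155775341 on the plus strand and that of Serpini1 is chr3:75557243-75557492 on the plus strand.
Mmp24: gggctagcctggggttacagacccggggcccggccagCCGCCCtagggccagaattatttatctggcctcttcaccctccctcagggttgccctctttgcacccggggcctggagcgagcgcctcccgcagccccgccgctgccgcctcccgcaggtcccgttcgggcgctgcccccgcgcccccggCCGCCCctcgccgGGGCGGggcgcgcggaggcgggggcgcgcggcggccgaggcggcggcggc
Serpini1: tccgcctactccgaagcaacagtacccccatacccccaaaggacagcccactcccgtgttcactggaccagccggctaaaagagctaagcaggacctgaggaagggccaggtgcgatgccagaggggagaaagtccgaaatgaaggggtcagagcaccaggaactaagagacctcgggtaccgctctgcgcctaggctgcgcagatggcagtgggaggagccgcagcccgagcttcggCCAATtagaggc

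The Mmp24 stretch held 3 GC boxes and no CCAAT box, and 79.2% of its bases were G or C. The Serpini1 stretch held 1 CCAAT box, whose last base lay 8 bases before the start, and no GC box, and 61.2% of its bases were G or C. Over all 32851 promoters of the table, the median share of G and C was 52.4%, a GC box was present in 32.7% and a CCAAT box in 33.8%. Neither stretch held the letters TATAAA (12.4% of all promoters), TGANTCA (6.75%) or TGACGTCA (1.55%). A match is a match of letters and was not measured as a bound site.

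Across the 3 ages, the 10 genes differed little between genotypes. No member probe combined an unadjusted p below 0.05 with a more than 2-fold change at any age, a rule passed by 0.57%, 6.76% and 1.3% of all probes tested at 1, 3 and 12 months. After Benjamini-Hochberg adjustment over all probes (limma), 1 of 13 member probes passed 0.05 at 3 months, a probe of Mmp24, against 8.43% of all probes. At 1 and 12 months no member probe passed, nor did any other probe (0% at both ages). Without adjustment, 0, 2 and 1 of the 13 member probes had p below 0.05 at 1, 3 and 12 months, against 3.47%, 27.2% and 9.05% of all probes. The arrays of both genotypes did not overlap for 0, 3 and 1 of the 13 probes, against 3.32%, 20.3% and 15.5% of all probes. The shares of member probes were therefore no higher than the background by any of these counts, apart from the 3 of 13 (23.1%) that did not overlap at 3 months, which lies near it.

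**Figure D1:**
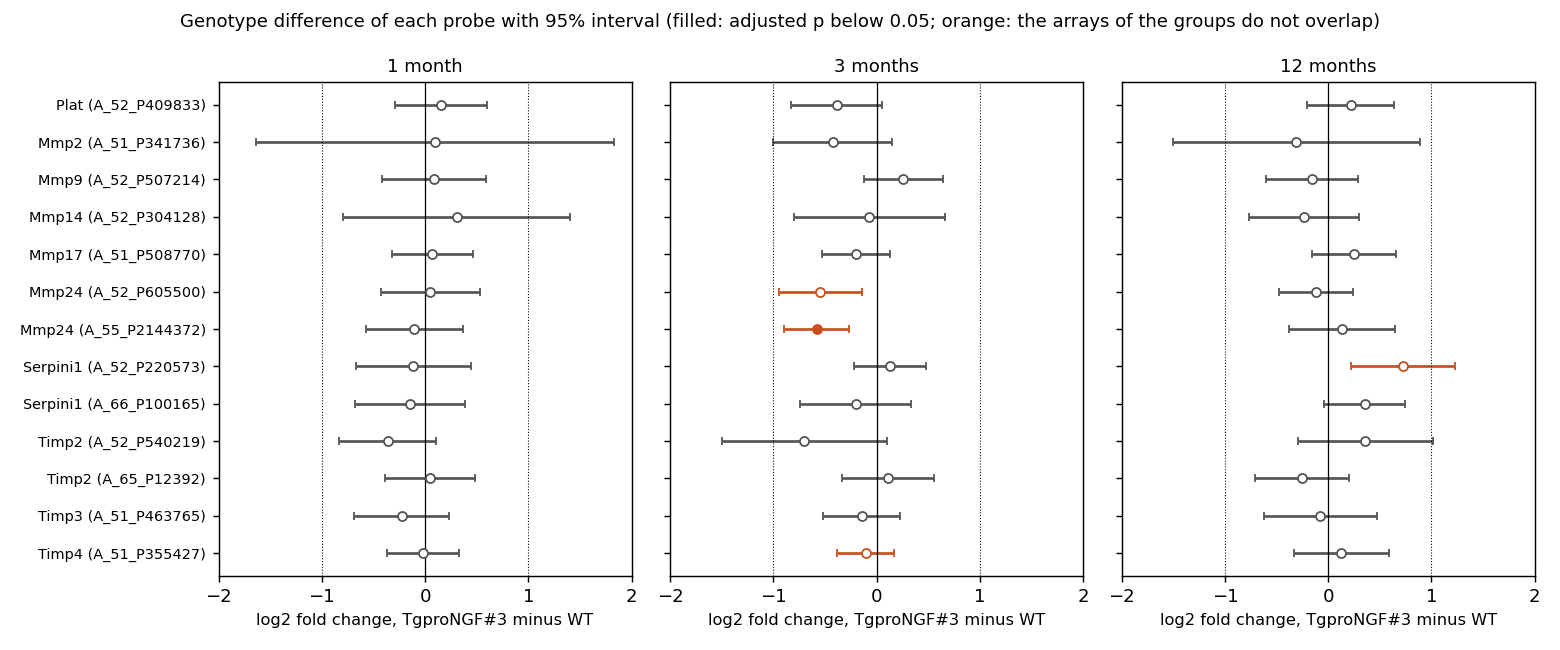
Log2 fold change (x axis, TgproNGF#3 minus WT) of the 13 member probes (y axis) at 1, 3 and 12 months, with the 95% interval from limma and dotted lines at a change of 2-fold either way. The filled point is the Mmp24 probe A_55_P2144372 at 3 months (-0.58), the only one with adjusted p below 0.05, and orange marks probes whose groups do not overlap.

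At 1 month the log2 fold changes of the 13 probes lay between -0.36 and 0.31, with 7 above and 6 below 0 and a median of 0.05 against 0.07 over all probes. The lowest was that of Timp2 on A_52_P540219 and the highest that of Mmp14. The limma adjusted p was 1.00 for every member. With same-numbered mice taken as pairs, 452 rather than 231 of all probes passed the rule of p and fold at this age, and still no member probe passed after adjustment. At 3 months the changes lay between -0.70 and 0.26, with 3 above and 10 below 0 and a median of -0.20, while all probes had a median of -0.12. At 12 months they lay between -0.31 and 0.72, with 7 above and 6 below 0 and a median of 0.13 against 0.01 over all probes.

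**Figure D2:**
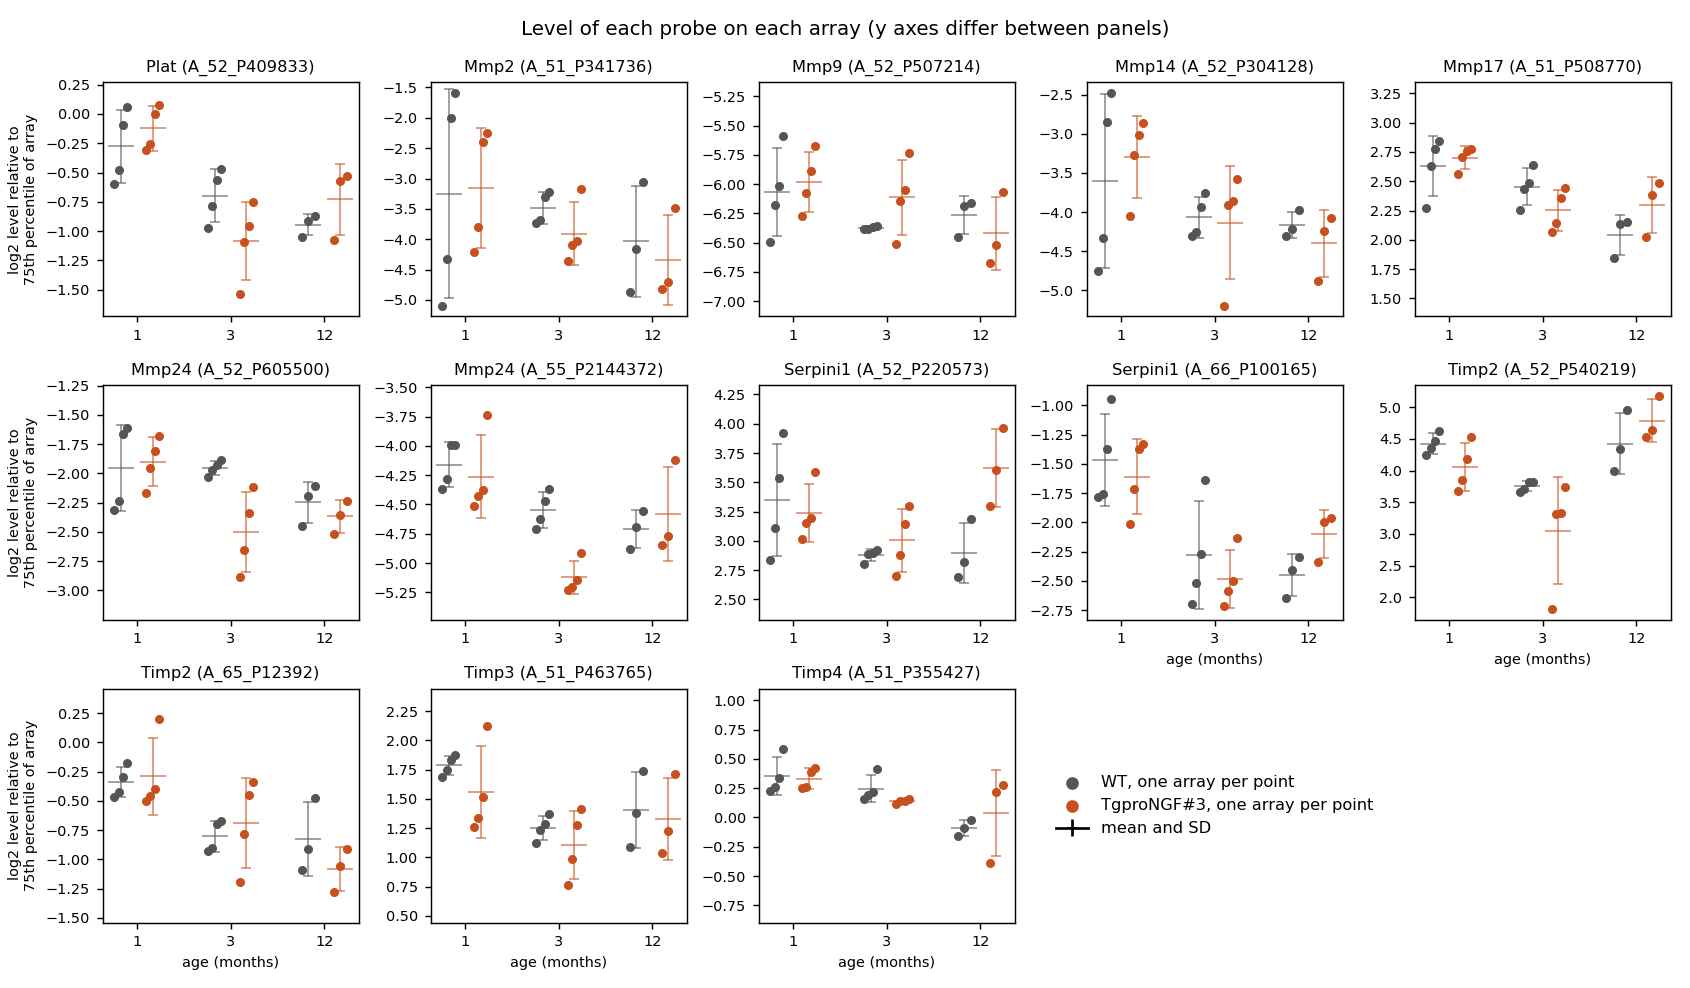
Log2 level of each of the 13 probes (y axis, relative to the 75th percentile of the array, with a scale of its own in each panel) by age in months (x axis) for WT (grey) and TgproNGF#3 (orange), 1 point per array, with the mean and SD. The groups separate for both Mmp24 probes at 3 months, by a narrow gap for Timp4 at 3 months, and for the Serpini1 probe A_52_P220573 at 12 months, and Mmp2 and Mmp14 scatter most at 1 month.

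Mmp24 encodes a membrane-type metalloproteinase (MT5-MMP) made mainly by neurons, and it was lower in TgproNGF#3 than in WT mice at 3 months on both of its probes. On A_55_P2144372 the WT levels were -4.47, -4.37, -4.62 and -4.71, and the TgproNGF#3 levels were -5.15, -5.20, -4.91 and -5.23. Every TgproNGF#3 mouse lay below every WT mouse. This amounts to a log2 fold change of -0.58 (SE 0.14, 95% interval -0.89 to -0.26, n = 4 and 4), or 0.670 of the WT level, with limma adjusted p = 0.0362. On A_52_P605500 the WT levels were -1.97, -1.93, -2.03 and -1.89, and the TgproNGF#3 levels were -2.66, -2.11, -2.34 and -2.88. Here too the groups did not overlap, with the WT mice close together and the TgproNGF#3 mice spread out. On this probe the change was -0.54 (SE 0.18, 95% interval -0.94 to -0.15), with limma adjusted p = 0.0878. The exact permutation test gave p = 0.0286 for each probe (two-sided), the smallest that 4 against 4 mice allow. Relative to the median of all probes at this age, the changes of the probes were -0.46 and -0.42, and 15.8% and 17.3% of all probes were as low or lower.

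The direction of the Mmp24 difference at 3 months was the same for both probes under each of 11 alternative settings and with each of the 8 mice left out, but its adjusted p was not stable. For A_55_P2144372 it ranged from 0.0334 to 0.141 over the alternatives and stayed below 0.05 in 4 of 11, and it stayed below 0.05 with 1 of 8 mice left out, ranging from 0.0276 to 0.101. A_52_P605500 passed in 1 of 11, the fit of all arrays together, where it had an adjusted p of 0.0449. At 1 month A_55_P2144372 had means of -4.16 ± 0.19 in WT and -4.26 ± 0.35 in TgproNGF#3 mice (SD, n = 4), and A_52_P605500 ranged from -2.31 to -1.61 and from -2.16 to -1.68. At 12 months the means of A_55_P2144372 were -4.71 ± 0.16 and -4.58 ± 0.40 and those of A_52_P605500 -2.25 ± 0.18 and -2.37 ± 0.14 (WT, then TgproNGF#3, SD, n = 3). The groups overlapped at both of these ages. From 3 to 12 months the genotype difference of A_55_P2144372 shifted by 0.71 (SE 0.28), with limma adjusted p = 0.159. From 1 to 3 months the genotype difference of A_52_P605500 shifted by -0.60 (SE 0.26), with limma adjusted p = 0.261. No member probe passed 0.05 in either comparison of ages, against 4.52% of all probes from 3 to 12 months and 2.87% from 1 to 3 months, and 3 and 1 of the 13 had an unadjusted limma p below 0.05, against 18.5% and 14.9% of all probes.

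Cell type markers also differed between genotypes at 3 months, where 8.43% of all probes passed. With dim spots kept, the summed level of the 14 leptomeningeal markers was 31.1 to 39.1 in TgproNGF#3 and 19.4 to 30.5 in WT mice. Whether these sums also separate on the scale of the levels was not tested. Of the 15 leptomeningeal probes 14 were higher, 1 of them by adjusted p. Of the 14 probes for hippocampal neurons, 11 were lower and 2 fell by adjusted p, with overlapping summed levels of 208 to 276 in TgproNGF#3 and 221 to 322 in WT mice. Of 12 endothelial probes 6 were higher and 6 lower, and 2 fell by adjusted p. Of 14 astrocyte probes 5 were higher and 9 lower. By adjusted p 2 of them fell, both of Slc1a2, while 1 probe of Aqp4 was at 1.04 (SE 0.31, limma adjusted p = 0.0714). Of 15 oligodendrocyte probes 8 were higher and 7 lower. By adjusted p 1 of them rose, while a probe of Mbp was at -1.11 (SE 0.33, limma adjusted p = 0.0688). Summed oligodendrocyte levels were 223.7 to 316 in TgproNGF#3 and 184 to 223.3 in WT mice, a narrow gap with dim spots kept. The part of these differences in the Mmp24 values was not tested.

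The other membrane-type enzymes overlapped between genotypes at every age. Mmp17 (MT4-MMP, anchored by a lipid tail) had 1-month levels of 2.85, 2.63, 2.27 and 2.77 in WT and 2.56, 2.71, 2.77 and 2.76 in TgproNGF#3 mice. Its 3-month levels were 2.64, 2.43, 2.25 and 2.49 in WT and 2.15, 2.44, 2.36 and 2.07 in TgproNGF#3 mice. In the 12-month mice they were 1.84, 2.15 and 2.13 in WT and 2.48, 2.02 and 2.38 in TgproNGF#3, with 2 of the 3 TgproNGF#3 mice above all WT mice. The 12-month log2 fold change of Mmp17 was 0.25 (SE 0.17, 95% interval -0.15 to 0.66), with limma adjusted p = 0.621, and it ran from 0.15 to 0.39 with 1 mouse left out. Mmp14 (MT1-MMP), which together with Timp2 activates the precursor of Mmp2, varied more between mice of the same genotype than between genotypes. At 1 month its WT levels were -4.75, -2.48, -4.33 and -2.85 and its TgproNGF#3 levels -4.05, -3.01, -3.27 and -2.86, a log2 fold change of 0.31 (SE 0.49, 95% interval -0.79 to 1.40). Leaving out WT replicate 1 gave -0.07, and leaving out WT replicate 2 gave 0.68. At 3 months the level in TgproNGF#3 replicate 4, at -5.20, lay below those of the other TgproNGF#3 mice, which were -3.90, -3.58 and -3.87.

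The gelatinase Mmp2 had the widest spread of the 13 probes, and no difference between genotypes was detectable at it. At 1 month the WT levels were -5.10, -1.59, -4.33 and -1.999 and the TgproNGF#3 levels -3.79, -2.24, -4.21 and -2.39. In both genotypes replicates 2 and 4 were high and replicates 1 and 3 low. Their log2 fold change was 0.09 (SE 0.78), with a 95% interval from 0.321 to 3.55 of the WT level. It was -0.52 without WT replicate 1 and 0.65 without WT replicate 2. At 3 months the levels of WT mice were -3.74, -3.21, -3.30 and -3.69 and those of TgproNGF#3 mice -3.17, -4.36, -4.09 and -4.03, a log2 fold change of -0.43 (SE 0.26, limma adjusted p = 0.315). It was -0.68 without TgproNGF#3 replicate 1 (limma adjusted p = 0.0730) and -0.28 without TgproNGF#3 replicate 2. At 12 months they were -4.87, -3.06 and -4.16 in WT and -4.83, -4.70 and -3.48 in TgproNGF#3 mice.

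Markers of the choroid plexus, a tissue that lies against the hippocampus, varied between the same mice. At 1 month the summed level of the 12 choroid plexus markers was 30.6, 484.5, 102.5 and 322.5 in WT replicates 1 to 4 and 86.3, 302.3, 47.0 and 144.0 in TgproNGF#3 replicates 1 to 4. At this age the mice with high Mmp2 were those with the high sums. At 12 months WT replicate 2, with the highest sum of all arrays at 673.4, also had the highest Mmp2 level of its age at -3.06, and the arrays with sums of 52.4, 61.1 and 68.4 had the lowest, from -4.87 to -4.70. At 3 months TgproNGF#3 replicate 3 stood apart from this order, with a sum of 589.1 and Mmp2 at -4.09. Over the 22 arrays, after the mean of each group was taken off, the genes most like Mmp2 were Tmem72 (Pearson r = 0.91), Mmp15 (r = 0.89) and Bmp6 (r = 0.88), of which Tmem72 is one of the choroid plexus markers. These values share their arrays, and the part of choroid plexus tissue in the Mmp2 levels was not tested. No choroid plexus probe had an unadjusted p below 0.05 for genotype at any age, although 17 of 17 were lower in TgproNGF#3 mice at 1 month, 16 of 17 at 3 months and 16 of 16 at 12 months.

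**Figure D3:**
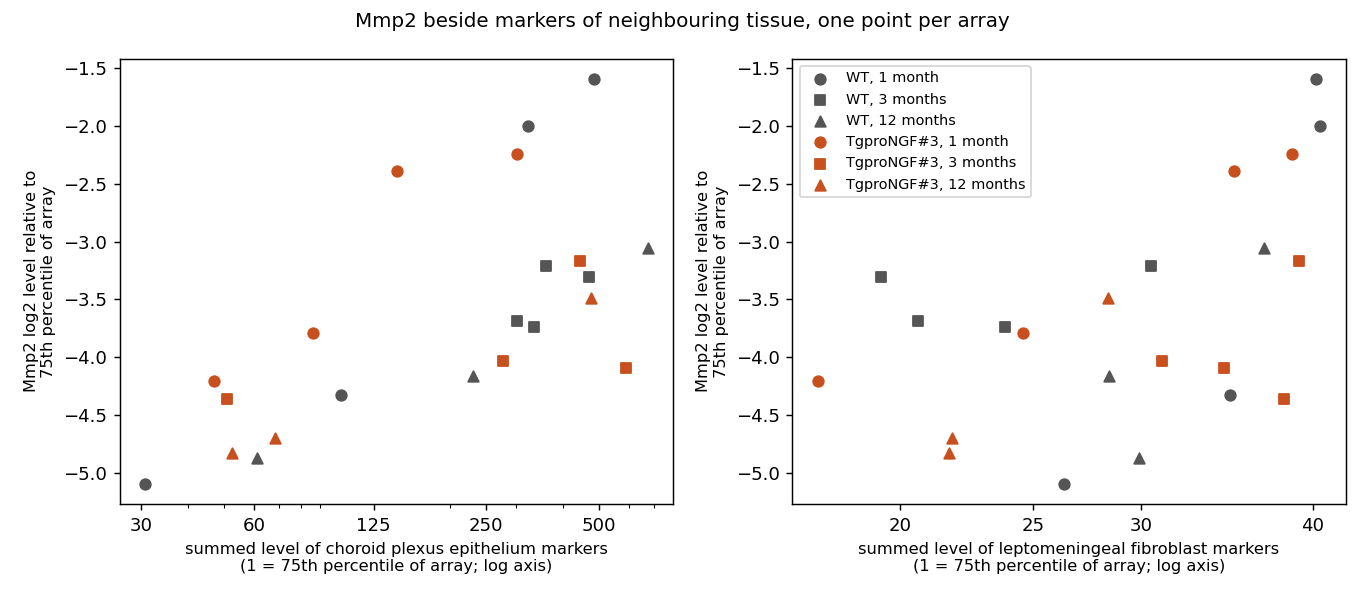
Mmp2 log2 level (y axis) against the summed level of choroid plexus markers (left) and leptomeningeal markers (right), 1 point per array with age by shape and genotype by colour. Both sums are on log axes in units of the 75th percentile of the array with dim spots kept. At 1 month Mmp2 runs from -5.10 on the WT array with a choroid plexus sum of 30.6 to -1.59 on the one with 484.5, and at 12 months the array with the highest sum, 673.4, has the highest Mmp2 of its age at -3.06, whereas the 3-month array with a sum of 589.1 has Mmp2 at -4.09.

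The gelatinase Mmp9, a secreted enzyme made at low levels in the resting brain, was close to background. Its probe is printed as 10 spots, of which all 10 were well above background on each array at 1 month, 7 to 10 at 3 months and 1 to 10 at 12 months. At 3 months the WT levels lay within -6.38 to -6.36, whereas the TgproNGF#3 levels were -6.05, -5.74, -6.14 and -6.51. The difference was 0.26 on the log2 scale (SE 0.17, 95% interval -0.12 to 0.64, limma adjusted p = 0.355), and it depended on the treatment of dim signal. Without TgproNGF#3 replicate 2 it was 0.13, and without TgproNGF#3 replicate 4 it was 0.39. With dim spots kept the difference was 0.49 (limma adjusted p = 0.126), and every TgproNGF#3 mouse (-4.80 to -4.21) then lay above every WT mouse (-5.16 to -5.03), whereas with a normexp background correction it was -0.08 (limma adjusted p = 0.821). At 1 month the levels ranged from -6.50 to -5.59 in WT and from -6.27 to -5.67 in TgproNGF#3 mice, and at 12 months they ran from -6.45 to -6.16 and from -6.67 to -6.07. Some of the 12-month values of Mmp9 rest on 1 spot.

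Plat, which encodes tPA, overlapped between genotypes at all ages. At 3 months the levels were -0.97, -0.47, -0.56 and -0.78 in WT and -1.09, -0.75, -0.95 and -1.54 in TgproNGF#3 mice. The lowest of these came from TgproNGF#3 replicate 4, the array with the fewest spots well above background. On the log2 scale the difference was -0.39 (SE 0.20, 95% interval -0.83 to 0.05), with limma adjusted p = 0.234, and without that mouse it was -0.24 (adjusted p = 0.394 by limma). At 12 months the levels were -1.05, -0.91 and -0.87 in WT and -0.57, -1.08 and -0.53 in TgproNGF#3 mice, a log2 fold change of 0.22 (SE 0.18, adjusted p = 0.669 by limma) that ran from 0.12 to 0.39 with 1 mouse left out. From 3 to 12 months the genotype difference of Plat shifted by 0.60 (SE 0.29), with limma adjusted p = 0.260.

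Serpini1, the neuroserpin gene, was higher in every TgproNGF#3 mouse than in any WT mouse at 12 months on its leading probe, without passing the adjusted threshold. On A_52_P220573 the WT levels were 2.82, 2.69 and 3.18 and the TgproNGF#3 levels 3.30, 3.60 and 3.96. The fit gave a log2 fold change of 0.72 (SE 0.21, 95% interval 0.22 to 1.22, n = 3 and 3), or 1.65 times the WT level, with limma adjusted p = 0.549. Of all probes tested at 12 months, 98.9% had a change as low or lower. The exact permutation test gave p = 0.1 (two-sided), the smallest that 3 against 3 mice allow. On A_66_P100165 the WT levels were -2.30, -2.65 and -2.41 and the TgproNGF#3 levels -2.34, -1.97 and -1.99, so that the groups overlapped. Here the change was 0.35 (SE 0.17, 95% interval -0.04 to 0.74), with limma adjusted p = 0.557. Under 11 alternative settings the change stayed between 0.44 and 0.87 on the one probe and between 0.23 and 0.52 on the other, and the lowest limma adjusted p was 0.326 and 0.418. The value of 0.44 is that with the array row as a block, which compares the 3 TgproNGF#3 arrays with WT replicate 3 alone.

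The groups overlapped on both probes at the earlier ages. At 1 month A_52_P220573 of Serpini1 had means of 3.35 ± 0.48 in WT and 3.24 ± 0.25 in TgproNGF#3 mice (SD, n = 4), and at 3 months 2.88 ± 0.05 and 3.00 ± 0.27 (SD, n = 4). On A_66_P100165 the log2 fold change was -0.14 (SE 0.24) at 1 month and -0.20 (SE 0.24, limma adjusted p = 0.614) at 3 months. With 1 mouse left out these changes reached 0.029 and 0.010, so neither sign was stable. Between 3 and 12 months the genotype difference of A_52_P220573 shifted by 0.60 (SE 0.32), with limma adjusted p = 0.331. Some markers of other tissue also differed between genotypes at 12 months. Leptomeningeal markers were lower in TgproNGF#3 mice, with 11 of 15 probes at an unadjusted limma p below 0.05 and 9 of those past 2-fold, although none passed after adjustment. Their summed level was 21.7 to 28.4 in TgproNGF#3 and 28.4 to 36.9 in WT mice, and that of the 12 neuronal markers was 288 to 333 and 265 to 298. The summed level of the 8 mural cell markers, with dim spots kept, was 12.0 to 14.1 in TgproNGF#3 and 14.4 to 19.6 in WT mice. Of the 8 mural probes 6 were lower and 2 higher, with 1 of the lower ones at an unadjusted limma p below 0.05. Kcnj8 went the other way without overlap, at 0.47 (SE 0.21, limma adjusted p = 0.549). The part of these in the Serpini1 values was not tested.

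The TIMPs differed little. Timp2, which both inhibits metalloproteinases and takes part in the activation of Mmp2, had probes that disagreed. On A_52_P540219 the 3-month levels were 3.82, 3.71, 3.67 and 3.82 in WT and 3.31, 3.34, 3.74 and 1.82 in TgproNGF#3 mice, with replicate 4 far below the others. The difference was -0.70 on the log2 scale (SE 0.36, 95% interval -1.50 to 0.10, limma adjusted p = 0.239), and without that mouse it was -0.29. On A_65_P12392 it was 0.11 (SE 0.20, limma adjusted p = 0.75). At 12 months the changes were 0.36 (SE 0.28) and -0.26 (SE 0.20), with limma adjusted p of 0.652 and 0.649, and with the array row as a block the former was -0.17. With 1 mouse left out they ran from 0.14 to 0.62 and from -0.39 to -0.08. For A_52_P540219 the genotype difference shifted by 1.06 (SE 0.46) from 3 to 12 months, with limma adjusted p = 0.210, and by 0.65 to 1.32 with 1 mouse left out. At 1 month that probe gave -0.36 (SE 0.21, 95% interval -0.83 to 0.11), with WT levels of 4.46, 4.36, 4.63 and 4.24 and TgproNGF#3 levels of 3.85, 4.52, 4.18 and 3.68.

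Timp3, which binds to the matrix and also inhibits ADAM proteases, lies within the span of Syn3 in the annotation, and Timp4 within that of Syn2. At 1 month Timp3 levels were 1.69 to 1.87 in WT and 1.26 to 2.12 in TgproNGF#3 mice. They were 1.12 to 1.37 and 0.76 to 1.41 at 3 months, then 1.09 to 1.74 and 1.04 to 1.71 at 12 months, with overlap at each age. Timp4 levels ranged from 0.22 to 0.59 in WT and from 0.25 to 0.42 in TgproNGF#3 mice at 1 month. At 3 months every TgproNGF#3 mouse was lower, with 0.12 to 0.16 against 0.16 to 0.42, but the gap between the groups was small beside the WT spread and the limma adjusted p was 0.606 (log2 interval -0.38 to 0.17). The difference was -0.11, and -0.05 without WT replicate 1. With dim spots kept, which raised the level on each of these arrays, the groups overlapped, with levels of 1.53 to 1.98 in TgproNGF#3 and 1.60 to 1.82 in WT mice, and the log2 difference was 0.028. At 12 months they ranged from -0.15 to -0.02 in WT and from -0.38 to 0.28 in TgproNGF#3 mice.

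Other genes of the same systems were read from lists put together by name, and each list is given at 3 months by the number of its probes that passed after adjustment. Among other matrix metalloproteinases, 4 of 19 probes could be tested at 3 months and 0 passed the adjusted threshold, and 5 could be tested at 12 months, where Mmp23 was at -1.04 (SE 0.31, limma adjusted p = 0.549). In the plasminogen system, 8 of 13 probes were tested at 3 months and 2 passed. One of these, S100a10, a part of the plasminogen receptor, rose by 0.76 (SE 0.19, adjusted p = 0.0427). At 1 month Plau, the urokinase gene, had a log2 fold change of -1.12 (SE 0.43, adjusted p = 1.00) from 3 TgproNGF#3 and 2 WT arrays that measured it.

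Among other regulators of metalloproteinases, 1 of 6 probes passed at 3 months. It was that of Furin, the convertase that activates membrane-type metalloproteinases and cleaves proNGF, which fell by 1.35 on the log2 scale (SE 0.26, adjusted p = 0.0150) and did not overlap between the groups. At 12 months the same probe of Furin was at 0.05 (SE 0.14). Among ADAM and ADAMTS proteases, 4 of 22 probes passed at 3 months. Both probes of Adam33 rose, by 1.09 (SE 0.18, adjusted p = 0.00859) and 0.70 (SE 0.13, adjusted p = 0.0149). Adam8 fell by 1.14 (SE 0.22, adjusted p = 0.0164), and Adam17, the shedding protease that Timp3 inhibits, fell by 0.77 on one probe (SE 0.17, adjusted p = 0.0269). The other probe of Adam17 was at -0.43 (SE 0.20, adjusted p = 0.201). At 12 months Adamts4, which cleaves aggrecan and brevican, was at -1.73 (SE 0.57, adjusted p = 0.549).

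Among brain serine and cysteine proteases of the matrix, 1 of 14 probes passed at 3 months. It was Klk6, the gene of neurosin, an oligodendrocyte protease, which rose by 1.96 (SE 0.27, adjusted p = 0.00572) with a value on 4 TgproNGF#3 and 3 WT arrays. At 1 month Klk6 was at 1.24 (SE 0.31, adjusted p = 1.00) and at 12 months at -0.44 (SE 0.74). Serpina3n in the same list was at -1.44 (SE 0.40, adjusted p = 0.0550) at 3 months. Among matrix substrates, 1 of 15 probes passed, a probe of Bcan, the brevican of perineuronal nets, which fell by 0.52 (SE 0.13, adjusted p = 0.0445). The other probe of Bcan was at 0.43 (SE 0.15, adjusted p = 0.0992), so the probes of this gene differed in sign. At 12 months Nid1, a basement membrane gene, was at -1.15 (SE 0.28, adjusted p = 0.549). The adjusted p values of these lists are from limma over all probes. The medians of the 3-month changes were -0.39 for the 7 probes of the member proteases, -0.13 for the 6 probes of the member inhibitors and between -0.21 and 0.09 for the other 6 lists, beside -0.12 for all probes.

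**Figure D4:**
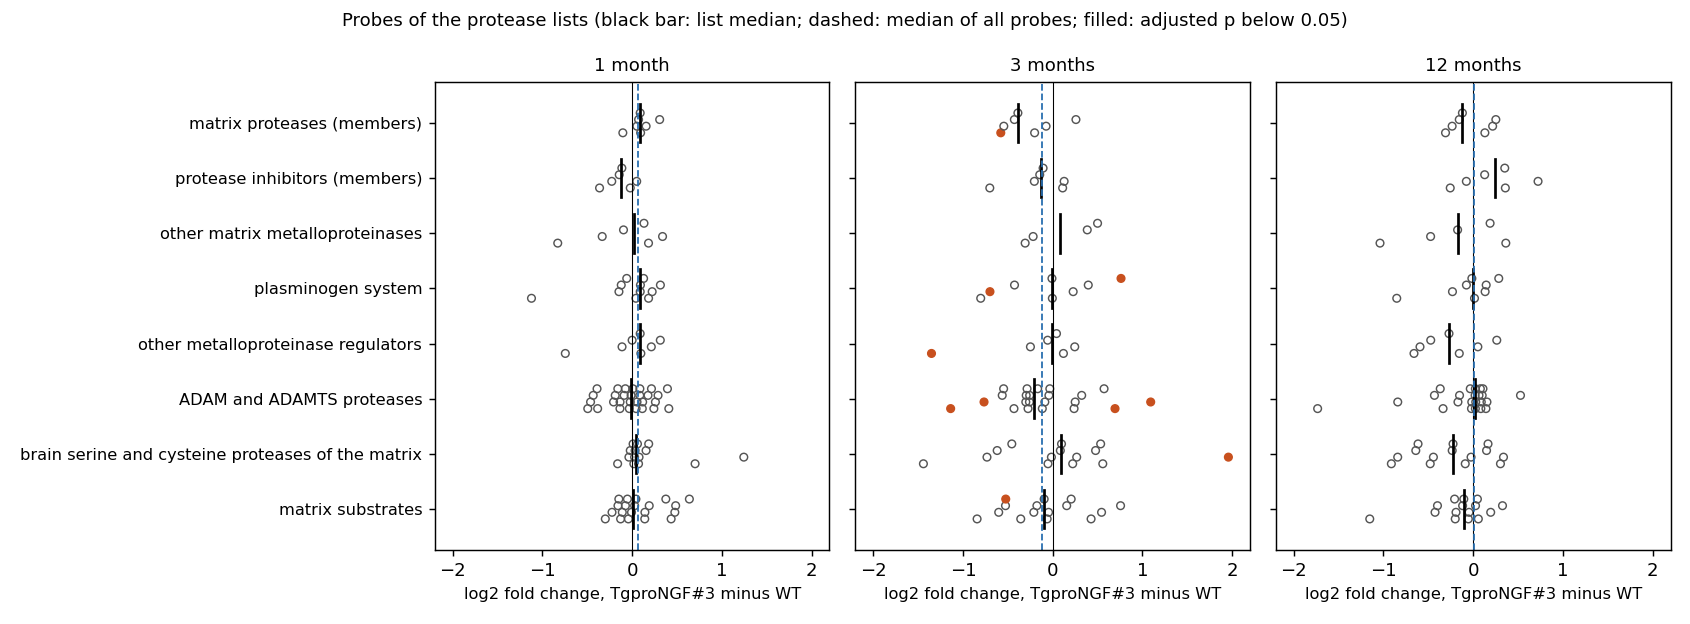
Log2 fold change (x axis, TgproNGF#3 minus WT) of every tested probe of the member genes and of 6 lists of related genes (y axis) at 1, 3 and 12 months, with list medians as black bars and the median of all probes as a dashed line. Filled points, all at 3 months, have adjusted p below 0.05 and lie on both sides of 0, from Furin at -1.35 to Klk6 at 1.96.

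In WT mice the levels of most members were lower at 3 months than at 1 month, as were those of most genes on these slides. This depended on the filter on dim spots. Of the 13 probes 12 were lower, with a median difference of -0.42 on the log2 scale against -0.45 over all probes, and 44.6% of all probes passed an adjusted p of 0.05. Among the members, A_66_P100165 of Serpini1 fell from -1.46 to -2.28 (difference -0.82, SE 0.23, limma adjusted p = 0.00790), and Timp3 fell from 1.78 to 1.25 (difference -0.53, SE 0.20, adjusted p = 0.0330). Relative to all probes, 16.2% were as low or lower than this Serpini1 probe and 40.7% than Timp3. The number of member probes that passed was 7 with scaling by the median, 6 with quantile normalization and 0 with dim spots kept or with the authors' scaled values. With dim spots kept 6 of the 13 were lower and 7 higher, from -0.37 for the Serpini1 probe to 0.45 for A_52_P605500 of Mmp24, with Timp3 at -0.08. With the authors' scaled values 7 of 12 were lower, and with either of the other scalings 13 of 13 were. From 3 to 12 months no member probe passed, against 7.21% of all probes. The smallest adjusted p were those of Mmp17 (-0.41, SE 0.16, limma adjusted p = 0.124) and Timp4 (-0.34, SE 0.15, adjusted p = 0.173).

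The genes whose levels varied most like those of a member between mice of the same group were also listed, from 28898 probes with a value on every array, as a description over 22 arrays that share slides and scaling. For Plat they were Cilk1, Wdfy3 and Slc20a2 (r = 0.94, 0.93 and 0.92), and for Serpini1 Nppc, Pcdhb21 and Ppp1r3d (r = 0.94, 0.94 and 0.93). For Mmp14 they were Trim3, Lgals9 and Tuba1b (r = 0.95 for each), for Mmp17 Trim46, Fbxo41 and Aaas (r = 0.93, 0.92 and 0.92), and for Mmp24 Gapdh, Baiap2 and Prrt1 (r = 0.94, 0.93 and 0.93). For Mmp9, r did not exceed 0.85. For Timp2 they were Ptprf, G2e3 and Mrpl41 (r = 0.94, 0.93 and 0.92), for Timp3 Col4a4, Crb2 and Antxr1 (r = 0.93 for each), and for Timp4 Cyp4f15, Celsr3 and Stap2 (r = 0.89, 0.88 and 0.88). Between probes of the same gene, r over the 22 arrays was 0.22 for Mmp24, 0.60 for Serpini1 and 0.63 for Timp2. The within-group SD of the leading probe, the one with the highest mean signal of a gene, ran from 0.16 for Timp4 to 0.99 for Mmp2.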

How the data were processed

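One-colour Agilent arrays (design 028005) were scanned and read by the authors with Agilent Feature Extraction 10.7.3.1, whose deposited intensity per spot is background-subtracted and not scaled between arrays. The authors also deposited log2 values of that signal shifted per array, used here as an alternative. Grid annotation followed mm9. Control spots were removed first, then outlier spots and those not well above background. The array's 75th percentile was subtracted on the log2 scale, and spots of a probe were averaged (R 4.3.3). Probes with at least 2 values per group entered limma 3.58.1 (lmFit, eBayes) per age, and 22 arrays entered one fit for comparisons between ages. Gene names came from RefSeq accessions (28026 of 55681 probes), and 0 columns were left without a sample. The test was checked on simulated data.

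The members and gene lists were chosen with earlier results of these data known. Every probe of a member entered the counts and figures. From other lists, genes passing either call rule were named, up to 4 per list and age. The rule of p below 0.05 and log2 fold change beyond 1 follows the methods of the study. The p-values measure the spread between these mice. At 1 month same-numbered mice deviated together (r = 0.51, 0.27, 0.19 and 0.21 over 36103 probes) and shared an array row, which held other numbers too. The WT mouse most like a TgproNGF#3 mouse had its number for replicates 1, 2 and 3 but not 4. Sample titles give only a replicate number, so pairs were used as an alternative. The number of arrays limits the precision.
Alternatives covered the filters on dim and outlier spots, the scaling, the background correction (normexp on median signals, offset 50), the authors' log2 values, the fit, blocks and each mouse left out. The results of some genes of the lists are not reported here.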

Additional observations from a re-analysis of the deposited data

Results flagged for a closer look

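In groups of 4 mice, the level of the Timp2 probe A_65_P12392 in TgproNGF#3 replicate 2 at 1 month, 0.20, lay far above the other 3 mice of its group, which were at -0.40, -0.50 and -0.46. It was singled out because its gap to the next mouse took up most of the range of the group, and it was the only such case among 52 groups examined, where chance gives about 1 in 20.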

How the results depend on the processing

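The following values moved across alternatives, and the cause was not tested. At 1 month 231 probes passed the rule of p and fold, and 54 passed with a normexp background, 51 with the authors' log2 values, 136 with probes well above background on every array, 96 with all arrays in one fit and 452 with the replicate block. Leaving out 1 mouse gave 134 (without WT replicate 3) to 385 (without TgproNGF#3 replicate 4). At 3 months 2272 passed that rule, 3900 with dim spots kept and 1234 with normexp. After adjustment 2831 probes passed at 3 months, 5095 with all arrays in one fit and 780 with the replicate block, and 969 (without WT replicate 4) to 3500 (without TgproNGF#3 replicate 3) with 1 mouse left out. At 12 months 444 passed the rule, 1337 with dim spots kept, 197 with normexp, 198 with the array row as a block, which was added after the data had been seen, and 221 (without WT replicate 2) to 995 (without WT replicate 3) with 1 mouse left out. After adjustment at 12 months 0 passed, 1 with normexp, 2 with the authors' log2 values, and 0 to 263 with 1 mouse left out, the latter without WT replicate 3.

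Of the members, 1 probe passed after adjustment at 3 months. It was 0 with dim spots kept, the percentile of all spots, median scaling, quantile normalization, normexp, the replicate block or the array row, 2 with all arrays in one fit, and 0 to 1 with 1 mouse left out. In WT mice from 1 to 3 months 2 member probes passed, 0 with dim spots kept or the authors' log2 values, 7 with median scaling, 6 with quantile normalization and 1 to 5 with 1 mouse left out. Signs of the members' genotype differences were often unstable. Of the 13 probes 4, 3 and 6 turned in at least 1 alternative at 1, 3 and 12 months, and 9, 3 and 4 with at least 1 mouse left out. Among the differences given one by one in the text, the sign turned for Mmp9 at 3 months with normexp (-0.076), for A_52_P540219 of Timp2 at 12 months with the array row (-0.17) and for Timp4 at 3 months with dim spots kept (0.028) or with the 75th percentile of all spots (0.023). With 1 mouse left out the 1-month change ran from -0.52 to 0.65 for Mmp2 and from -0.074 to 0.68 for Mmp14, and the 3-month change of A_65_P12392 of Timp2 from -0.0054 to 0.28. For A_66_P100165 of Serpini1 it ran from -0.25 to 0.029 at 1 month and from -0.34 to 0.010 at 3 months. For A_52_P220573 of Serpini1, given by its means, it ran from -0.29 to 0.076 at 1 month. At 3 and 12 months same-numbered mice did not deviate together (r from -0.36 to 0.05). They shared an array row at 3 months, and at 12 months only those numbered 3 did.

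Scaling moved the median log2 change of all probes at 3 months from -0.12 to 0.00 (percentile of all spots) and at 12 months from 0.01 to 0.16 (median scaling). The share of lower calls by the rule moved with it, from 57.6% to 70.6% (percentile of all spots) and 40.5% (quantile) at 1 month and from 76.1% to 55.4% (median) and 44.8% (quantile) at 12 months. The share of lower adjusted calls at 3 months moved from 81.3% to 58.5% (percentile of all spots). Signal near background limits the values of Mmp9 at 12 months.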

Other observations

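Serpini1 lies head to head with Pdcd10 in the annotation, and Pdcd10 was looked at after the Serpini1 values had been seen. At 12 months the probe of Pdcd10 was at 0.37 on the log2 scale (SE 0.15, limma adjusted p = 0.549), at 3 months at 0.27 (SE 0.15, limma adjusted p = 0.277) and at 1 month at 0.13 (SE 0.21, limma adjusted p = 1.00).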
